A study of Mus musculus with 18 samples.

Results

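The histone mRNAs described here are the transcripts of genes that, with the exceptions named below, encode the proteins on which DNA is wound. They were chosen by a rule on gene names, written with earlier results of these data known: every gene of the deposited table named as a member of the Hist1 to Hist4 clusters, together with H2afz, H2afv, H2afx, H2afy, H2afj, H3f3a, H3f3b and H1f0. The rule found 79 entries among the 34745 genes of the table. Of these, 71 are cluster genes, called replicative below (Hist2h2bb is entered under more than one identifier), and 8 are variants. The GENCODE M21 annotation lists Hist3h2bb-ps, Hist1h2al and Hist1h2aj as pseudogenes and the longer Hist2h2bb entry as a noncoding RNA. They are kept among the 71, and each had 27 counts or fewer over all libraries. The study measured RNA of mouse macrophages grown from thigh-bone marrow for 6 days with 20 ng/ml of macrophage colony-stimulating factor and then given 100 ng/ml LPS, the bacterial cell-wall lipid, for 8 h. Every library comes from LPS-treated cells, so no value describes resting macrophages. The cells are labelled wild type (WT, mkrn2+/+) or knockout (KO, mkrn2-/-) for Mkrn2, which encodes a makorin RING-finger protein. From each genotype label, RNA was taken from whole lysate (total RNA) and from the polysomes and monosomes of a polysome profile. Each of the 6 groups has 3 libraries, 18 in all, and the labels do not say whether these came from separate mice or cultures, so a p-value measures the spread between these libraries. The labels also do not give the kind of knockout allele, the age of the mice or the strand setting of the libraries.

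Mkrn2 RNA was present in every library under both genotype labels. The KO-to-WT fold of Mkrn2 in total RNA was 0.888 (95% confidence interval 0.788 to 1.001). It was 0.901 (0.7998 to 1.01) for polysomes and 0.772 (0.684 to 0.871) for monosomes. None of these passed edgeR's quasi-likelihood test with Benjamini-Hochberg adjustment, with adjusted p of 0.855, 0.79 and 0.086. In monosome RNA the libraries labelled KO, at 63.4, 75.03 and 68.0 CPM (counts scaled to a common library size), lay below the WT libraries at 85.3, 91.2 and 91.1 CPM. The KO groups are therefore called "libraries labelled KO". Total counts per library ran from 9190034 to 16711558, and those of the monosome libraries from 9190034 to 12606314. Macrophage markers such as Csf1r and Lyz2 summed to 6594 to 10790 CPM in every library and none of the list was at 0. The summed neutrophil markers reached 15.2 CPM, with Ly6g at 0.

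Replicative histone genes supply the H2A, H2B, H3, H4 and linker H1 proteins that package newly made DNA, and they are transcribed mainly in S phase. Most of their mRNAs end without a poly(A) tail. A short hairpin near the 3′ end, the histone stem-loop, is bound by the protein encoded by Slbp, which serves processing, export and translation of the message. Variant genes are made through the whole cell cycle with ordinary poly(A) tails. H3f3a and H3f3b encode the same replacement H3 protein, H2afx the H2A form that is phosphorylated beside DNA breaks, H2afy macroH2A, H2afz and H2afv the H2A.Z forms that mark promoters, H2afj the H2A.J form, and H1f0 a linker histone of cells that have stopped dividing. Some replicative genes are also known to give longer, polyadenylated messages in differentiated cells. In macrophages, LPS is known to slow the division driven by colony-stimulating factor.

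The hairpins of some genes discussed below are shown because the stem-loop is the sequence feature that sets replicative histone messages apart. They were read from the GENCODE M21 transcripts (build GRCm38, sense strand, written as DNA), with 7 bases on either side in lower case and the stem-loop in capitals.
Hist3h2a: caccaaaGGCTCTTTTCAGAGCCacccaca
Hist2h2aa1: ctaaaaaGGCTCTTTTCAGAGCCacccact
Hist1h1c: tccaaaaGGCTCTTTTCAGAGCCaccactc
Hist1h2bf: acccaaaGGCTCTTTTCAGAGCCacctacc
Hist1h2ao: aaaaaaaGGCTCTTTTCAGAGCCatccaca
Hist1h4i: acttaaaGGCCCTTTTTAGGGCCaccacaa
H2afx: ccacaaaGGCCCTTTTAAGGGCCaccacct
The first 5 share the same 16 letters, which 24 replicative genes carry. The letters of the H4 gene Hist1h4i are shared with Hist2h4, and those of the variant H2afx were found in no replicative gene. There were 8 different stem-loops among the replicative genes.

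The stem-loop was found, on the sense strand, in 44 of the 69 replicative genes that the annotation lists and in 1 of the 8 variants, H2afx. The search pattern was looser than the letters shown, with alternative bases at several positions and no demand that the arms pair. Over all 55450 annotated genes, 134 (0.242%) matched it. Of the 25 replicative genes without a stem-loop, 15 have annotated transcripts under 420 bases. The annotated transcripts differ in what follows the hairpin. Hist2h2aa1 continues for 35 bases after it, Hist1h2ao for 31 and Hist1h2bf for 29, whereas Hist3h2a continues for 1643 bases, H2afx for 822, Hist1h1c for 840, Hist2h3c2 for 377 and Hist1h4i for 330. Hist1h2bc, Hist2h2be and the other 7 variants had no stem-loop in their annotated transcripts. The 44 hairpin genes divide into 22 with at least 100 bases after it and 22 with fewer. A poly(A) signal, AATAAA or ATTAAA, stood in the last 50 bases of an annotated transcript in 12 of the former and 2 of the latter. That transcript need not be the one with the hairpin. Their median mean FPKM over the 18 libraries was 0.179 and 0.0754. These figures describe annotated transcripts, and the ends of the RNA in these cells were not measured.

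A few genes held nearly all of the replicative histone signal. The 71 replicative entries summed to 58186 counts over the 18 libraries and the 8 variants to 341011. Hist3h2a, an H2A gene of the small Hist3 cluster (chromosome 11, 58954685 to 58956830 in the deposited table), gave 44.6% of the replicative counts. Hist3h2a and Hist1h2bc, an H2B gene of the Hist1 cluster (chromosome 13, 23684199 to 23692488), together gave 72.8%, and with Hist1h1c, a linker histone gene, and Hist2h2aa1, an H2A gene, the share was 90.0%. By protein, H2A genes gave 53.3% of the replicative counts, H2B genes 33.1%, H1 genes 10.9%, H4 genes 1.81% and the 12 H3 genes 0.820%. The 12 replicative H3 genes together had 477 counts, while the H3 variants H3f3a and H3f3b gave 80.2% of the variant counts. Among the 71 entries, 8 were at 0 in every library, 28 had 1 to 9 counts over all 18, 23 had 10 to 99 and 12 had 100 or more.

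Levels between genes were compared as FPKM (fragments scaled by a length per gene and by library size), which the authors deposited beside the counts. The length implied by FPKM and counts was 4971 bases for H3f3a, 3880 for H2afz and 736 for Hist1h2bc. Their longest GENCODE M21 transcripts have 2841, 1069 and 1156 bases, while for Hist3h2a both lengths were 2146. Ranks between such genes depend on the length used. In WT total RNA, H3f3b stood highest of the 79 members at 172, 163 and 162 FPKM (mean 166 ± 5.67, SD, n = 3), and its lowest library was above the highest library of every other member. Hist1h2bc followed at 43.9, 46.2 and 45.2 FPKM (45.1 ± 1.15). Hist3h2a stood at 38.5, 41.5 and 43.2 FPKM (41.1 ± 2.37). Hist1h2bc was above Hist3h2a in each of these libraries, and the ranges of these neighbours nearly met, at 43.9 and 43.2 FPKM. H3f3a (33.2 ± 3.18 FPKM) and H2afy (31.3 ± 1.79) overlapped and did not differ beyond their spread. H1f0 came next at 16.5 ± 0.345 FPKM. Hist1h1c (12.65 ± 1.82 FPKM) was clear of H2afj (7.03 ± 1.56), which overlapped H2afx (6.16 ± 0.218). Hist1h2bf, Hist2h2aa2, Hist1h2bh and Hist1h4i had means of 3.18 to 5.68 FPKM. H2afv (1.95 FPKM) and H2afz (0.803 FPKM) were the lowest variants. Hist2h2aa1 could not be placed, since one WT total library had 0 counts while the others stood at 26.3 and 17.7 FPKM.

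**Figure D1:**
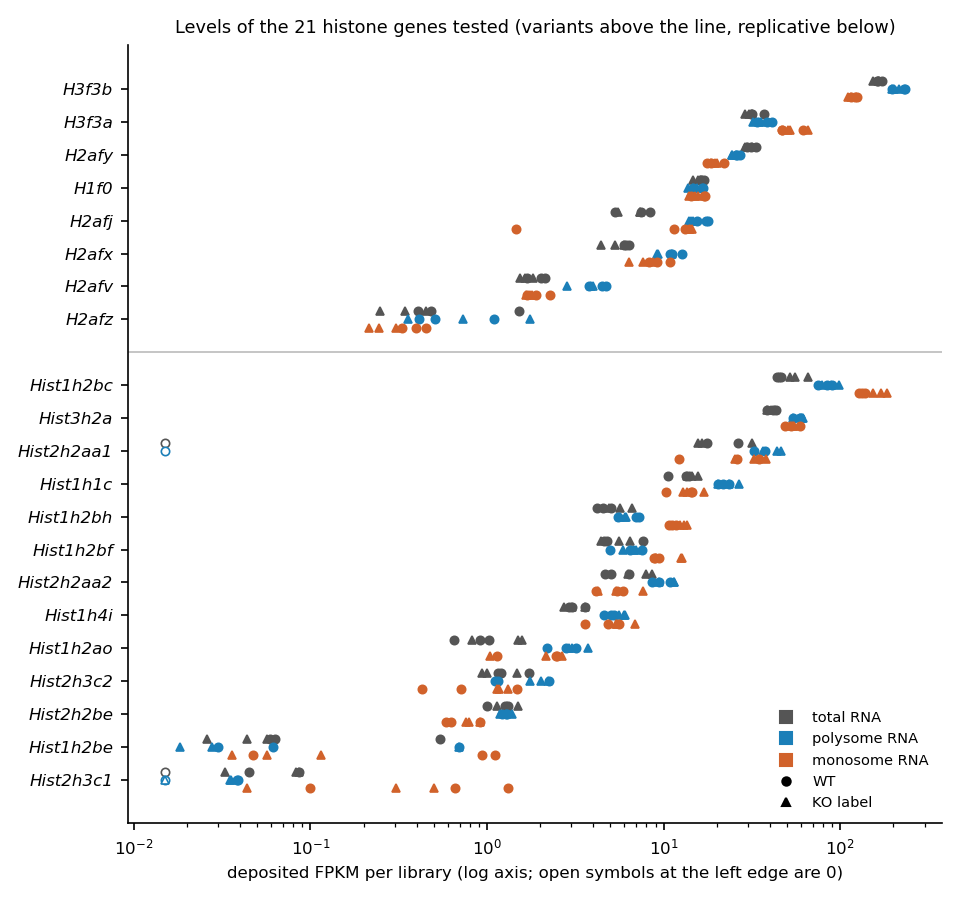
Deposited FPKM of the 21 histone genes with enough counts to test, 1 symbol per library on a log axis; colours mark the RNA source, circles WT and triangles the libraries labelled KO, and open symbols at the left edge are 0. H3f3b stands highest, Hist1h2bc and Hist3h2a lead the replicative genes, and Hist2h2aa1, Hist1h2be, H2afz and Hist2h3c1 scatter widely between libraries.

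Tests covered 21 of the 79 members: the 8 variants and 13 replicative genes with enough counts. The other 58 entries, all replicative, held between 24 and 78 counts per library in all, which is 1.40% of the replicative counts, and the highest of them, Hist1h2ae, had a mean of 0.739 FPKM. Their summed level was 1.67 to 2.64 CPM in WT total RNA, 2.24 to 4.39 in WT polysome RNA and 4.43 to 6.85 in WT monosome RNA. One gene, Hist2h3c1, had 0 to 2 counts per total or polysome library and 1 to 30 per monosome library, so it was tested through its monosome libraries alone and its fraction differences are not given. It is 1 of the replicative genes called in the monosome counts below, where the filter itself fixed its direction. Hist1h2ao had 4 to 12 counts per total library, 16 to 28 per polysome library and 5 to 16 per monosome library. It passed the filter through its polysome and monosome libraries. It is among the replicative genes called higher than total RNA below, a direction that the filter favoured. Counts over the 21 are therefore not counts over all members. CPM values below are scaled by the trimmed mean of M-values (TMM), which sets the typical gene equal between libraries.

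Polysome RNA held more of the common replicative messages than total RNA did. Of the 13 replicative genes tested, 6 were higher in WT polysome RNA than in WT total RNA and 0 were lower, and of the 8 variants 4 were higher and 1 was lower. Over all 12782 genes tested, 16.5% were higher and 16.5% were lower in this comparison. Hist1h2bc stood at 25.7, 26.7 and 26.3 CPM in WT total RNA and at 53.5, 48.3 and 42.6 CPM in WT polysome RNA. The polysome libraries were all above the total ones, by 0.88 ± 0.11 on the log2 scale (log2 difference ± SE, edgeR adjusted p = 3.62e-05). Hist3h2a rose from 65.7, 70.0 and 73.3 CPM to 93.2, 98.6 and 97.9 CPM, a difference of 0.47 ± 0.09 (adjusted p = 0.00076). Hist1h1c stood at 13.1, 17.1 and 16.6 CPM in total and 25.6, 26.3 and 28.3 CPM in polysome RNA, again without overlap (0.78 ± 0.16). Hist1h2ao, a less abundant H2A gene, had the largest difference of those past the threshold, 1.63 ± 0.39, on levels of 0.248 to 0.386 CPM in total RNA. The filter on low counts favoured this direction for Hist1h2ao, as given above. Hist2h2aa2 (0.84 ± 0.21) and the H4 gene Hist1h4i (0.63 ± 0.18) were also higher. Hist1h4i lost its call without WT total replicate 3 (0.57) or without WT polysome replicate 1 (0.57).

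Of the 5 H2A variants, 3 were higher in WT polysome RNA, 1 was lower and H2afz did not pass the threshold (−0.29 ± 0.53). H2afv stood at 3.28, 3.09 and 2.61 CPM in total RNA and 7.03, 5.76 and 7.11 CPM in polysome RNA, a difference of 1.15 ± 0.16 (edgeR adjusted p = 7.27e-05). H2afx went from 6.76, 6.94 and 6.52 CPM to 12.2, 11.98 and 13.6 CPM (0.90 ± 0.14). H2afj was higher by 1.25 ± 0.44 (adjusted p = 0.0382), a call that ended when any one of the 6 WT total and polysome libraries was left out. H3f3b was higher by 0.39 ± 0.07, from 731 to 783 CPM in total RNA to 871 to 1073 CPM in polysome RNA. H2afy, the longest of the variant messages, was the 1 member that was lower, at 210, 185 and 196 CPM in total RNA against 166, 168 and 160 CPM in polysome RNA (−0.26 ± 0.07, adjusted p = 0.00801). That call of H2afy was lost with no filter on low counts (−0.23, edgeR adjusted p = 0.0548) and without both libraries in which Hist2h2aa1 was at 0 (−0.23, edgeR adjusted p = 0.0654). H3f3a (0.18 ± 0.11) and H1f0 (−0.05 ± 0.10) did not pass the threshold. Leaving out both libraries in which Hist2h2aa1 was at 0, an alternative chosen after seeing the data, left 7 of the 11 calls in number.

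The libraries labelled KO gave 8 members higher in polysome than in total RNA (5 replicative, 3 variants) and 1 lower, H2afy at −0.28 ± 0.07, beside 16% higher and 15.8% lower over all genes tested. H2afy lost that call without KO total replicate 1 (−0.20). All 9 were also called, in the same direction, in WT. Hist1h2bc was higher by 0.63 ± 0.11, Hist3h2a by 0.54 ± 0.09, H2afv by 1.10 ± 0.16 and H2afx by 0.92 ± 0.15. Every member called in either genotype label had polysome libraries that did not overlap the total libraries. The same held for 1 member not called in WT and 5 not called under the KO label. Such separation therefore does not mark the called members, and its share over all genes was not computed. In the median of the members tested, polysome minus total was 0.51 for the replicative genes and 0.29 for the variants in WT, and 0.63 for both in the libraries labelled KO. The median of all genes tested was −0.02 in each.

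Monosome RNA held the largest differences from total RNA. These are stated relative to the typical gene: without TMM scaling the median of all genes tested moves from −0.04 to −1.035 in WT and from −0.05 to −1.07 in the libraries labelled KO, on the log2 scale, and some members change direction with it. With scaling, 9 replicative genes (Hist2h3c1 included) and 7 variants were higher in WT monosome than in WT total RNA and 0 were lower, beside 31.4% higher and 31% lower over all genes tested. Without scaling, the split of calls in WT was 9 higher and 3 lower, beside 1136 higher and 8839 lower of all 12782 genes tested. In the libraries labelled KO, 10 replicative genes (Hist2h3c1 included) and 7 variants were higher and 0 lower, beside 32.4% and 33%. There, 8 were higher and 3 lower without scaling, beside 1188 higher and 8957 lower of all genes tested. The same 16 members were called higher in both.

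Hist1h2bc led this comparison among the well-counted genes. It stood at 154, 155 and 155 CPM in WT monosome RNA, against 25.7 to 26.7 CPM in WT total RNA, which is 5.90-fold (2.56 ± 0.11, edgeR adjusted p = 4.95e-11). In the libraries labelled KO it stood at 213, 206 and 182 CPM against 30.4 to 38.5 CPM, 5.95-fold. The groups were far apart, and the direction was kept without scaling under both labels. Its H2B relative Hist1h2bh was higher by 2.27 ± 0.15 and Hist1h2bf by 1.67 ± 0.23, on levels of 6.23 to 7.12 CPM in WT monosome RNA. Hist3h2a reached 157, 186 and 202 CPM, a difference of 1.38 ± 0.09. Hist1h4i was higher by 1.57 ± 0.19. Hist1h2bh, Hist1h2bf, Hist3h2a and Hist1h4i also stayed higher and past the threshold without scaling, under both labels. Hist1h2ao was higher by 2.25 ± 0.42 in WT and by 1.58 ± 0.38 under the KO label, where the call was not kept without scaling. For this gene the filter on low counts favoured that direction. Hist1h1c (1.05 ± 0.17 in WT) and Hist2h2aa2 (0.96 ± 0.24) were at 0.04 and −0.04 without scaling. Hist2h3c2 was called under the KO label alone (1.11 ± 0.38) and lost the call without KO total replicate 2 (0.97) or KO monosome replicate 2 (1.03). The KO-label call of Hist2h2aa2 (0.63 ± 0.22) ended without KO total replicate 3 (0.51) or KO monosome replicate 2 (0.35).

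Both H3 variant genes were higher in monosome RNA after scaling. H3f3a stood at 146, 123 and 122 CPM in WT total RNA and at 458, 383 and 369 CPM in WT monosome RNA, a difference of 1.63 ± 0.11 (edgeR adjusted p = 5.16e-09), and it stayed higher without scaling. H3f3b stood at 783, 731 and 733 CPM in total and at 1075, 1092 and 1099 CPM in monosome RNA. That is 0.54 ± 0.07 after scaling and −0.46 without it, past the threshold in each, so its direction depends on the scaling. H2afy behaved in the same way, at 0.30 ± 0.07 with and −0.69 without scaling. H2afx was higher by 1.61 ± 0.15 and stayed so without scaling. H2afv (1.01 ± 0.17) and H1f0 (0.97 ± 0.10) were at 0.01 and −0.03 without it. H2afj was higher by 1.28 ± 0.45 in WT, where monosome replicate 2 held 44 counts against 255 and 352 in the others. Without that library the difference was 1.78 ± 0.16 (adjusted p = 3.52e-07), and the call ended without WT total replicate 1 (1.11), WT monosome replicate 1 (1.06) or WT monosome replicate 3 (0.81). The scaled difference of H2afj under the KO label was 2.10 ± 0.45, and it stayed higher without scaling.

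**Figure D2:**
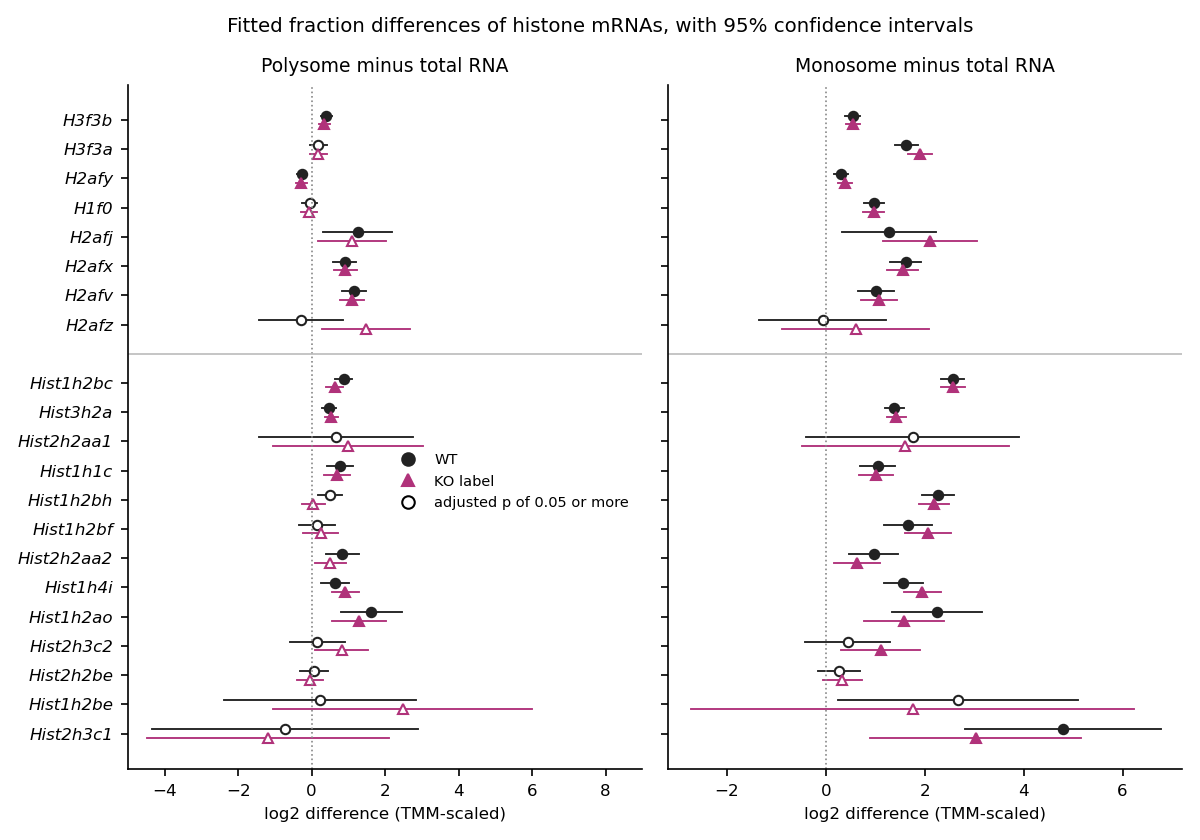
Fitted log2 differences of the 21 histone genes tested after TMM scaling, polysome minus total RNA on the left and monosome minus total RNA on the right, with 95% confidence intervals; circles are WT, triangles the libraries labelled KO, and open symbols did not pass an adjusted p of 0.05. Hist1h2bc lies near 2.6 in monosome minus total RNA under both labels. Without scaling, every monosome value moves down by about 1. Then H3f3b, H2afy, H1f0, Hist2h2aa2, Hist2h2be and H2afz (both labels), Hist2h3c2 (WT) and Hist1h1c (KO label) are below 0. Hist2h3c1 was tested through its monosome libraries alone, and Hist1h2ao through its polysome and monosome libraries.

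The RNAs tested that are known to have no poly(A) tail were higher in monosome than in total RNA under both labels. Over all genes tested, 31.4% were higher in WT and 32.4% under the KO label. Of 10 such RNAs listed, 6 are in the table and 2 were tested. Their summed level was 1.03 to 5.85 CPM in the total and polysome libraries and 54.9 to 120 CPM in the monosome libraries. Rpph1, the RNA of the enzyme that trims tRNA precursors, was higher in monosome than in total RNA by 6.44 ± 0.44 in WT, and Rmrp, a related RNA, by 3.98 ± 0.36. In WT polysome minus total RNA these went opposite ways, Rpph1 at 2.53 ± 0.46 and Rmrp at −2.225 ± 0.56, and neither passed under the KO label. Of the 6 RNAs, 4 were at 0 in the total libraries of each label. Rny3 and Rprl3 were at 0 in every library. The part of these RNAs' shift in the replicative histone values was not tested.

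Set against monosome RNA, polysome RNA held less of many histone messages. After scaling, 10 members were lower in WT (6 replicative with Hist2h3c1, 4 variants) and 0 higher, beside 29% lower and 26.2% higher over all genes tested. In the libraries labelled KO, 11 were lower (6 replicative with Hist2h3c1, 5 variants) and 0 higher, beside 29.5% and 28.6%. Without scaling the median of all genes moves from 0.01 to 1.01 in WT and from 0.03 to 1.04 under the KO label. The splits of the members then become 6 higher and 5 lower in WT and 9 higher and 5 lower under the KO label. Over all 12782 genes tested, the unscaled splits were 9221 higher and 729 lower in WT and 9237 and 786 under the KO label. Hist1h2bc was lower by 1.69 ± 0.11 in WT, from 154 to 155 CPM in monosome RNA to 42.6 to 53.5 CPM in polysome RNA, and fell by 1.94 under the KO label. Hist1h2bh (−1.77 and −2.14), Hist1h2bf (−1.53 and −1.82) and H3f3a (−1.45 and −1.73) were lower with and without scaling. Hist3h2a (−0.91), Hist1h4i (−0.93), H2afx (−0.71) and H2afy (−0.56) in WT had the opposite sign without scaling, and H1f0 (−1.03) fell to −0.01. H3f3b was not past the threshold in WT (−0.15 ± 0.07, edgeR adjusted p = 0.0956). Its KO-label value, −0.20 ± 0.07 (adjusted p = 0.0217), lost the call without KO polysome replicate 2 or 3 or KO monosome replicate 1 and became 0.81 without scaling. These comparisons share libraries with those against total RNA.

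Most histone messages have short coding regions, so their values are set beside those of other genes with short coding regions, called short genes below. A coding length from the GENCODE M21 annotation was found for 11680 of the 12782 genes tested (91.4%) and for 20 of the 21 members, Hist1h2bh being without one. Coding regions under 500 bases were found in 16 members and in 1030 other genes, a group set up after the values were seen and compared here without a test. In WT polysome minus total RNA, 53.2% of the 1030 other genes and 56.3% of the 16 histone genes were higher, with medians of 0.48 and 0.55. In WT monosome minus total RNA, after scaling, 74.2% of the other short genes and 68.8% of the histone genes were higher, with medians of 1.04 and 1.48. In WT polysome minus monosome RNA 55.0% of the other short genes and 37.5% of the histone genes were lower, and 10.6% and 0% were higher. Genes with coding regions of 2000 bases or more had medians of −0.29 in polysome minus total and −0.71 in monosome minus total RNA. H2afy, with 1116 coding bases, was the longest histone message by this measure and, with the exceptions given above, the 1 member called lower in polysome than in total RNA. Hist1h2bc, at 2.56 in monosome minus total RNA, lay above the upper quartile of the other short genes, 1.65.

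**Figure D3:**
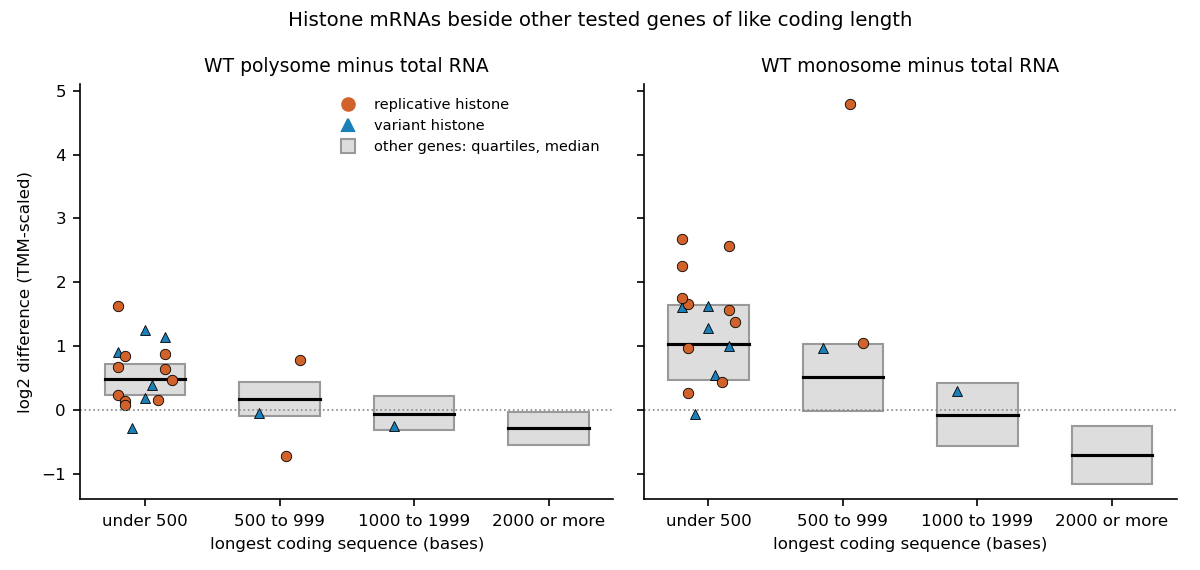
Scaled log2 differences in WT of the 20 tested histone genes with a known coding length (circles replicative, triangles variant) beside the quartiles and median of the other tested genes in 4 classes of coding length in bases, for polysome minus total RNA and monosome minus total RNA. The medians of the other genes fall from 0.48 to −0.29 on the left and from 1.04 to −0.71 on the right as coding length grows; without scaling the right-hand values all move down by about 1.

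Ratios within a library do not depend on the scaling between libraries. For every 100 counts of variant histone mRNA, replicative mRNA gave 9.89 to 12.8 counts in the WT total libraries, 14.3 to 15.4 in WT polysome and 19.7 to 25.9 in WT monosome libraries. The corresponding ranges of the libraries labelled KO were 12.1 to 14.2, 15.98 to 18.8 and 24.6 to 28.6. Under each label the 3 RNA sources did not overlap, and monosome RNA was highest. Hist1h2bc made up 18.6 to 21.8% of the replicative counts in WT total, 21.2 to 25.3% in WT polysome and 33.3 to 40.8% in WT monosome libraries. Hist3h2a went the other way, from 50.02 to 55.8% in WT total to 39.9 to 43.4% in WT monosome libraries.

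H3f3a and H3f3b encode one and the same protein, and their balance differed between RNA sources. There were 16.7 to 18.6 counts of H3f3a for every 100 of H3f3b in WT total RNA, 12.9 to 18.3 in WT polysome RNA and 33.5 to 42.6 in WT monosome RNA. In the libraries labelled KO the ranges were 15.9 to 16.8, 13.1 to 15.5 and 39.3 to 46.4. The monosome libraries were above every total and polysome library under both labels, and total and polysome RNA overlapped in WT. The pair was singled out after its values were seen, so no test is given. Near-identical copies share reads with these genes: 12.3% of the 50-base stretches of H3f3a, and 6.86% of those of H3f3b, occur in other annotated genes, among them H3f3c and Gm6485. With the counts of the copies added, the WT ranges were 22.0 to 24.1, 16.4 to 23.4 and 36.3 to 45.1.

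**Figure D4:**
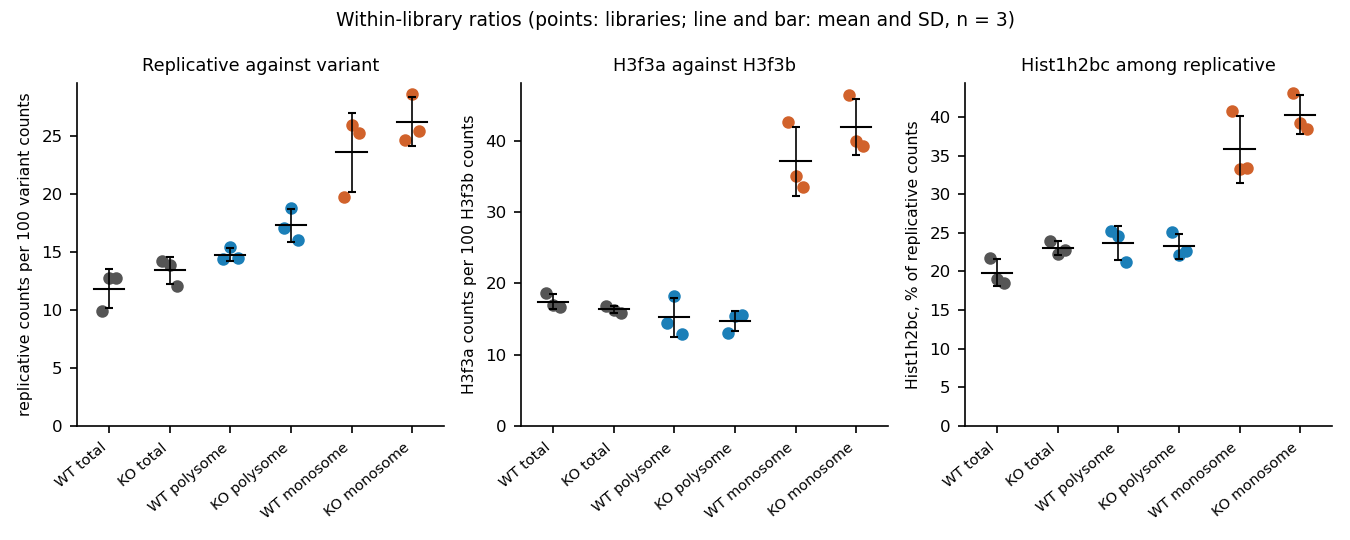
Ratios of counts within each library: replicative per 100 variant histone counts, H3f3a per 100 H3f3b counts, and Hist1h2bc as a percentage of replicative counts; points are libraries, lines and bars the mean and SD of 3 libraries. The monosome libraries are highest in every panel, with H3f3a at 33.5 to 46.4 counts per 100 of H3f3b against 12.9 to 18.6 elsewhere.

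Between the genotype labels, 0 of the 21 histone genes passed edgeR's quasi-likelihood test in any of the 3 RNA sources, beside 0.0156%, 0.0156% and 0.25% of all genes tested. DESeq2 also called 0 of them. At an unadjusted p under 0.05 there were 2 members in the total, 0 in the polysome and 2 in the monosome comparison, where 5.84%, 6.99% and 11.7% of all genes tested stood. Hist1h2bc had 30.4 to 38.5 CPM in the KO-labelled total libraries against 25.7 to 26.7 CPM in WT, and 182 to 213 CPM against 154 to 155 CPM in monosome RNA. The KO-labelled libraries of Hist1h2bc lay above the WT libraries in both sources and overlapped them in polysome RNA. Its KO-to-WT fold was 1.29 (95% confidence interval 1.10 to 1.51, unadjusted p = 0.0044 and adjusted p = 0.489) in total RNA and 1.08 (0.926 to 1.27) in polysome RNA. In monosome RNA its fold was 1.295 (1.11 to 1.52, edgeR unadjusted p = 0.00307 and adjusted p = 0.165). For Hist3h2a the folds were 0.995 (0.875 to 1.13), 1.05 (0.919 to 1.19) and 1.02 (0.900 to 1.16). H3f3b stood at folds of 0.976, 0.943 and 0.983.

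In total RNA, the KO-labelled libraries lay wholly above WT for 1 member (Hist1h2bc) and wholly below for 1 (Hist1h2be), beside 7.04% and 6.56% of all genes tested. In polysome RNA 1 member lay above (Hist1h4i) and 1 below (H2afj), beside 8.23% and 6.67%. In monosome RNA 3 lay above (Hist1h2bc, Hist1h2bh and H2afj) and 1 below (H2afz), beside 5.98% and 6.49%. The fitted difference was positive for 8 of the 13 replicative genes and 0 of the 8 variants in total RNA, with medians of 0.21 and −0.11. Positive differences numbered 10 and 1 in polysome RNA and 10 and 3 in monosome RNA. Over all genes tested, 51.9%, 51.2% and 48.0% were positive in total, polysome and monosome RNA. For polysome RNA the medians were 0.12 and −0.11, and for monosome RNA 0.22 and −0.06, beside medians of all genes within 0.02 of 0. Markers of stromal cells (Col1a1, Col1a2, Sparc and others) moved with the genotype label as well. All 7 of those tested had positive differences in each source, 0 passed the test, and none of the 8 listed was at 0. Their summed level was 265.8 to 340.8 CPM in WT and 349.7 to 387.8 CPM in KO-labelled total libraries. It was 135.5 to 174 against 186 to 215.2 CPM in polysome libraries and 283.8 to 331.3 against 352.2 to 390.7 CPM in monosome libraries. Fewer cells of a type and less RNA per cell cannot be told apart in these bulk samples, and the part of stromal cells in the histone values was not tested. The summed level of 21 tested S-phase genes was 274 to 287 CPM in WT and 285 to 305 CPM in KO-labelled total libraries, which overlap.

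**Figure D5:**
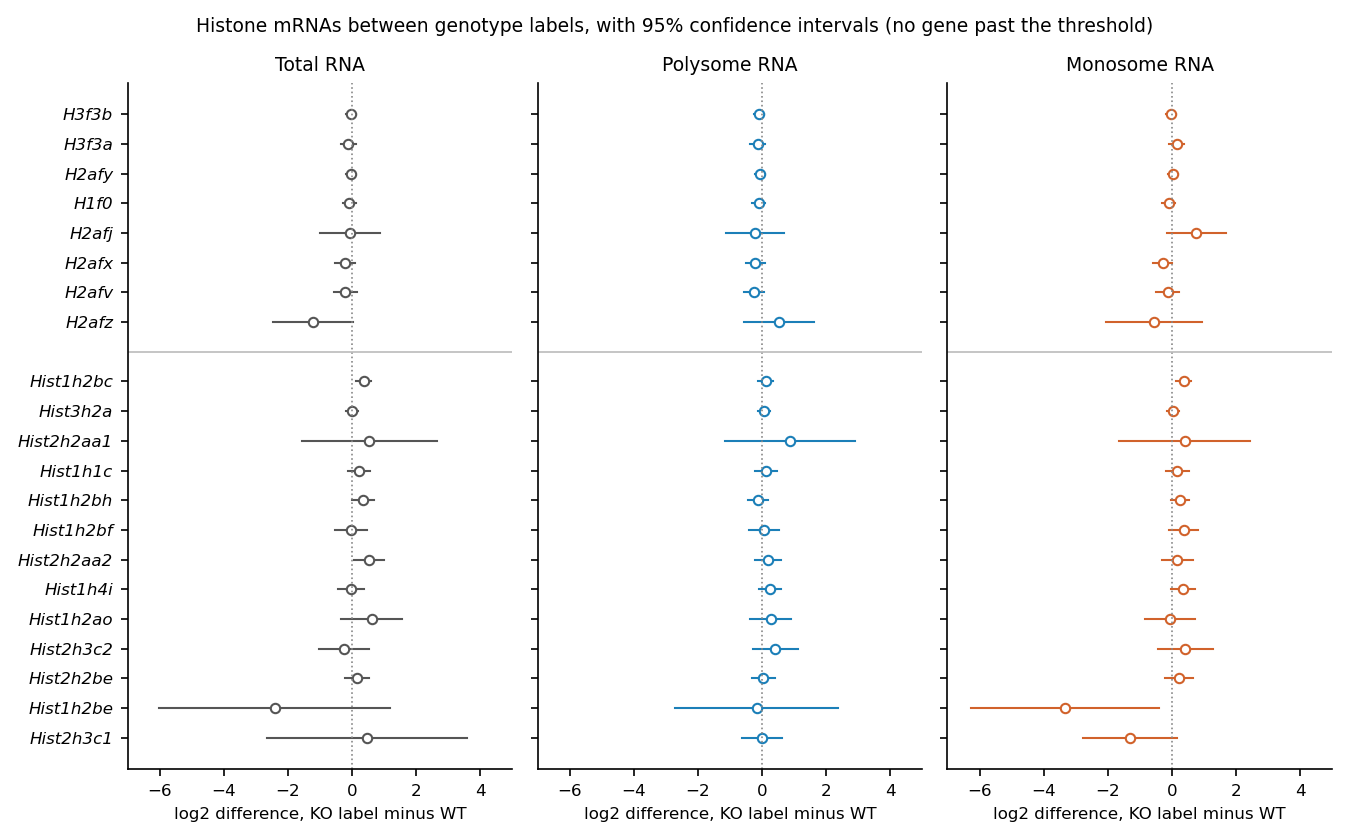
Fitted log2 differences of the 21 histone genes, libraries labelled KO minus WT, in total, polysome and monosome RNA, with 95% confidence intervals; open symbols mark an adjusted p of 0.05 or more. No gene passed the threshold; the intervals of Hist3h2a and H3f3b are narrow and include 0, while those of Hist1h2be, Hist2h2aa1 and Hist2h3c1 are wide.

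Whether the fraction differences themselves depended on the genotype label was tested as an interaction. For polysome minus total, monosome minus total and polysome minus monosome RNA, edgeR called 0 of the 21 members, beside 0%, 0.0548% and 0.0548% of all genes tested, and DESeq2 called 0. At an unadjusted edgeR p under 0.05 there was 1 member, H2afz in polysome minus total RNA (unadjusted p = 0.0379), and there were 0 in the others. Of all genes tested, 1.79%, 5.28% and 5.30% stood there, in the same order. Hist1h2bc, for example, was at 2.56 ± 0.11 in WT and 2.57 ± 0.11 under the KO label in monosome minus total RNA, after scaling.

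Some members scattered widely between libraries of one group. Hist2h2aa1 had 0, 188 and 132 counts in the WT total libraries and 316, 0 and 268 in the WT polysome libraries, and 66 to 404 in the other 12 libraries. In Hist2h2aa1, 89.4% of 50-base stretches occur in other genes, so its values are uncertain. In the 2 libraries with 0 counts, Hist2h2aa2 had 28 and 88 counts, against 34 and 41 in the other WT total and 71 and 64 in the other WT polysome libraries. Without these 2 libraries its monosome-minus-total difference in WT was 1.17 ± 0.41 (edgeR adjusted p = 0.0235), against 1.75 ± 1.01 with them, which did not pass. Hist1h2be, an H2B gene whose table entry covers a long stretch of the Hist1 cluster, had 48 to 85 counts in 5 libraries and few in the rest, and its intervals reach several log2 units. H2afz had 10 to 107 counts per library, far below its relatives H2afx and H2afj, and 16.9% of its 50-base stretches occur in other genes such as Gm8203. Hist2h3c1 shares all of its 50-base stretches (100%) and Hist2h3c2 63.5% with other genes, so their separate values are uncertain. The same limit holds for Hist2h2aa2 (100%), Hist1h2ao (93.5%) and Hist1h2bf (65.8%). It holds in part for Hist3h2a (31.5%), Hist1h2bc (30.1%) and Hist1h4i (28.9%), and less for Hist1h1c (8.54%).

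Genes that make, use or remove histone messages were read from lists in WT polysome minus total RNA, where 16.5% of all genes tested were higher and 16.5% lower. The lists are short, and several shares lie near these. Among other genes with coding regions of 2000 bases or more, 2.67% were higher and 30.8% lower, with a median of −0.29. The part of coding length in the values of the lists was not tested. Of 12 tested factors of histone mRNA processing, 5 were lower and 0 higher (also 5 and 0 under the KO label), with a median of −0.26, beside −0.02 over all genes. Srrt, a cap-binding partner, fell by 0.46 (SE 0.08), and the cleavage factors Cpsf2 and Cpsf3 by 0.45 and 0.47. Slbp, which encodes the stem-loop binder, stood at 11.4 to 12.02 CPM in total and 7.66 to 8.89 CPM in polysome RNA, without overlap but not past the threshold (−0.48 ± 0.22, edgeR adjusted p = 0.112). Of 8 factors of histone mRNA translation and decay, 1 was higher and 2 lower: Lsm1, which promotes decay after uridine addition, rose by 0.65 ± 0.14, while Upf1 (−0.43 ± 0.09) and Ctif (−0.64 ± 0.19) were lower. Under the KO label 2 were higher and 2 lower, and Ctif did not pass (−0.44 ± 0.19, edgeR adjusted p = 0.0909). Among 18 histone chaperones 6 were lower and 0 higher (5 and 0 under the KO label), with Anp32e, which removes H2A.Z, at −1.02 ± 0.18, Supt16 at −0.42 ± 0.11 and Nasp at −0.36 ± 0.11.

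Of 21 tested S-phase genes, which replicative histone genes accompany in dividing cells, 5 were lower in WT polysome than in total RNA and 0 higher (also 5 and 0 under the KO label). Pcna, the replication clamp, was at −0.70 ± 0.09 and Rrm2, a subunit of the enzyme that makes deoxynucleotides, at −1.41 ± 0.22. Of 8 mitosis genes 2 were lower, Top2a (−0.83 ± 0.14) and Cdk1 (−0.62 ± 0.20). Under the KO label 1 was lower, and Cdk1 did not pass (−0.44 ± 0.19, edgeR adjusted p = 0.0935). Of 4 other histone genes tested outside the naming rule, 2 were higher: H2afy2, which encodes another macroH2A (0.77 ± 0.13), and Cenpa, the centromere H3 (0.73 ± 0.19). Under the KO label 2 were also higher, and Cenpa did not pass (0.44 ± 0.19, edgeR adjusted p = 0.0899). No gene of these lists passed the test between genotype labels in any RNA source.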

How the data were processed

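The authors deposited 1 table with raw read counts per gene and FPKM values for each of the 18 libraries. Tools listed in the submitters' processing notes, with no roles, are StringTie 1.3.0, HISAT2 2.0.4 and fastp 0.23.2, and the genome build is not given in the sources used here. Per the labels' protocols, RNA was purified with an RNeasy kit and libraries were made with a SMARTer mRNA kit. How the kit primed RNA without poly(A) tails is not stated, so counts of replicative histone genes measure what that chemistry captured. FPKM, as deposited by the authors, matched counts per length and library with an implied length constant to within 0.071% for each gene, and sets no composition scaling. Of the replicative entries, 48 have the same positions in GENCODE M21 (GRCm38).

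Counts were tested with edgeR 4.0.16 in R 4.3.3: filterByExpr over the 6 groups (12782 genes kept), TMM scaling, 1 quasi-likelihood fit over all 18 libraries, Benjamini-Hochberg adjustment over all genes tested and a threshold of 0.05. Standard errors are the log2 difference divided by the square root of F. The 6 monosome libraries had TMM factors of 0.605 to 0.664, and the other 12 of 1.24 or more. Alternatives were DESeq2 1.42.0 (its own size factors, no adjusted p replaced where missing), other scalings and filters, a replicate block, fits of the compared groups alone and leaving out each library. The fit was tested on simulated counts. Genes with near-identical copies or antisense neighbours are uncertain, since strand is not stated. Named genes were Mkrn2, the variants, the 10 replicative genes of highest mean FPKM, up to 4 members each way of largest change among those called in a fraction comparison, and up to 3 genes per list of smallest p, apart from those that a count or a paragraph singles out by name. The members and lists were chosen with earlier results of these data known. Total counts per library, 9190034 to 16711558, set the precision.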

Additional observations from a re-analysis of the deposited data

Results flagged for a closer look

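H2afj differed between RNA sources in the direction of its KO-minus-WT difference. In polysome RNA all 3 libraries labelled KO lay below all 3 WT libraries, at 26.3 to 28.5 against 28.9 to 34.0 CPM, with a fitted log2 difference of −0.22. In monosome RNA all 3 lay above, at 53.1 to 57.6 against 5.80 to 50.3 CPM, with a difference of 0.76. Neither passed edgeR's quasi-likelihood test (adjusted p = 0.994 and 0.536), and the interaction of genotype label with polysome minus monosome RNA did not either (adjusted p = 0.9995). WT monosome replicate 2, with 44 counts against 255 and 352 in the other libraries of its group, decides much of the monosome value: without it the difference was 0.26 ± 0.16 (adjusted p = 0.655). Groups of 3 libraries were too small for the screen for single outlying samples.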

How the results depend on the processing

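Scaling between libraries mattered most. Of all 12782 genes tested, 1188 were called higher and 8957 lower in KO monosome minus total RNA without it. Without composition scaling, 11 members were called in KO monosome minus total RNA in place of 17, and these values of members called with scaling changed sign: in monosome minus total RNA, H3f3b to −0.46 in WT and −0.47 under the KO label, H2afy to −0.69 and −0.64, H1f0 to −0.029 and −0.059, Hist2h2aa2 to −0.040 and −0.40, and Hist1h1c under the KO label to −0.011. Hist2h2be, not called with scaling, was called lower without it, at −0.74 in WT and −0.69 under the KO label. In polysome minus monosome RNA, H2afy became 0.44 in WT and 0.36 under the KO label, H2afx 0.29 and 0.38, Hist3h2a 0.099 and 0.13, Hist1h4i 0.078 in WT and H3f3b 0.81 under the KO label. The cause was not tested. Of 74 calls of single genes, 963 alternative values kept the direction and side of the threshold in 904 cases, kept the direction without the call in 42 and reversed in 17, all 17 without composition scaling. A minimum mean of 5 CPM leaves fewer members to test, and gave 7 calls in WT polysome minus total, 9 in WT and 9 in KO monosome minus total, and 6 in WT and 7 in KO polysome minus monosome RNA. DESeq2, which covered 71 members and 20648 genes, called 11, 18 and 13 members in WT (polysome minus total, monosome minus total, polysome minus monosome) and 11, 22 and 15 under the KO label. Over all genes it called 2214, 3998 and 3425 higher and 2062, 3950 and 3549 lower in WT. Under the KO label it called 2204, 4188 and 3660 genes higher and 1989, 4156 and 3697 lower. Without both libraries in which Hist2h2aa1 had 0 counts, chosen after seeing the data, WT polysome minus total gave 7. Leaving out each library in turn gave 9 to 11, 15 to 17 and 10 to 14 calls in WT in the same order, 8 to 10, 16 to 18 and 10 to 12 under the KO label, and 0 in every comparison of genotype labels. Same-numbered libraries' deviations correlated at −0.0687 to 0.188, and not every pair was over 0.1 in any comparison, so the numbers were not taken to pair the samples. The same-numbered library was the best match in 11 of 27 cases, among them all 6 of polysome against total RNA (0.0438 to 0.188), a hint of pairing there from the data, not the design. With a replicate block the calls were 10, 16 and 10 in WT, 10, 17 and 12 under the KO label, and 0 in every comparison of genotype labels. Depth limits the 58 untested replicative genes, which held 24 to 78 counts per library in all, and also Hist2h3c1 and Hist1h2ao.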
